A study of Mus musculus with 12 samples.

Results

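The macrophage genes described here are Cd68, Csf1r, Lyz2, Trem2, Gpnmb, Mrc1, Itgax, Adgre1, Itgam and Cd163, chosen by name as the rows of the count table that carry these symbols, 10 of 54532 genes. They were followed in subcutaneous fat and liver of male mice. At 10 weeks of age the mice received 1 tail-vein injection of an adeno-associated virus of serotype 8 that uses the hepatocyte promoter of the thyroxine-binding globulin gene. The vector carried either nothing behind the promoter (null) or full-length human HKDC1 (hHKDC1 OE), and mice of both groups ate a low-fat diet for the following 16 weeks. Each tissue and vector had 3 libraries, 12 in all, with 15496019 to 19954971 counts on genes per library. The descriptions of replicates 2 and 3 of hHKDC1 OE in each tissue speak of a knockout, whereas their titles and treatment labels give overexpression, and they were kept as hHKDC1 OE. Human HKDC1 was not analysed here. Mouse Hkdc1 had 0 to 8 counts in every library and so does not check the labels.

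Macrophages are resident phagocytes of every tissue and depend on signals through the receptor that Csf1r encodes. In adipose tissue they clear dying adipocytes and take up released lipid, and they range from perivascular resident cells that carry CD163 and the mannose receptor (Mrc1) to lipid-associated cells that carry TREM2, GPNMB and CD11c (Itgax). Several of these genes are shared with other cells: Kupffer cells of the liver carry Adgre1 and Csf1r, dendritic cells carry Itgax, neutrophils and monocytes carry Itgam and Lyz2, and sinusoidal endothelium of the liver carries Mrc1. In whole tissue, fewer cells of a type and less RNA per cell cannot be told apart.

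The fat libraries differed in lymphoid RNA before any macrophage gene was considered. The summed CPM (counts per 1000000 counts of a library, scaled within each tissue by TMM factors) of 10 B cell markers were 2.43, 2.73 and 4.33 in null replicates 1, 2 and 3, against 955, 54.5 and 719 in hHKDC1 OE replicates 1, 2 and 3. The corresponding sums of 10 T cell markers were 11.9, 11.5 and 22.3 in null fat, against 605, 48.2 and 680 in hHKDC1 OE fat. Markers of lymph node stroma and venules summed to 1.74 to 5.96 CPM in null fat and to 182, 13.3 and 147 CPM in hHKDC1 OE fat. Replicates 1 and 3 of hHKDC1 OE fat thus stood apart from replicate 2, and replicate 2 stood above all null libraries. Each of the 10 B cell and 10 T cell markers had counts in at least 1 library of both fat groups. Adipocyte markers summed to 19426 to 25242 CPM in null fat and to 15560 to 24678 CPM in hHKDC1 OE fat. Hepatocyte markers summed to 3775, 3959 and 9460 CPM in null fat and to 2917, 1801 and 2604 CPM in hHKDC1 OE fat, with a lower estimate for 9 of 9 tested genes and an unadjusted p under 0.05 for 3 of them. In liver the B cell sum stayed between 0.926 and 3.97 CPM in both groups. The sum of lymph node stroma and venule markers was 17.0 CPM in hHKDC1 OE replicate 1, against 1.07 to 3.08 CPM in the other 5 liver libraries. All of that 17.0 CPM came from Cxcl13, and the other markers of the list were at 0 CPM in that library.

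In subcutaneous fat, 8 of the 10 macrophage genes had a higher estimate in hHKDC1 OE than in null mice and 2 had a lower one, namely Cd163 and Mrc1, the latter at -0.06 and, scaled by library size alone, at 0.09. The median log2 fold change of the 10 genes was 0.80, against -0.05 over all 16380 genes tested. No macrophage gene passed an adjusted p of 0.05 when tested with edgeR (quasi-likelihood, adjusted by Benjamini-Hochberg), and neither did any other gene (0.0% called higher and 0.0% called lower). The smallest adjusted p over all genes was 0.133. At an unadjusted p under 0.05, 4 macrophage genes were higher (Lyz2, Itgam, Itgax and Cd68) and 0 lower, where 11.3% of all tested genes were higher and 6.39% lower. For the same 4 genes every hHKDC1 OE library lay above every null library, an order that 12.5% of all tested genes shared. DESeq2, with its own adjusted p, called 2 of the 10 (Lyz2 and Itgam, both higher), where it called 7.0% of genes higher and 1.27% lower.

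**Figure D1:**
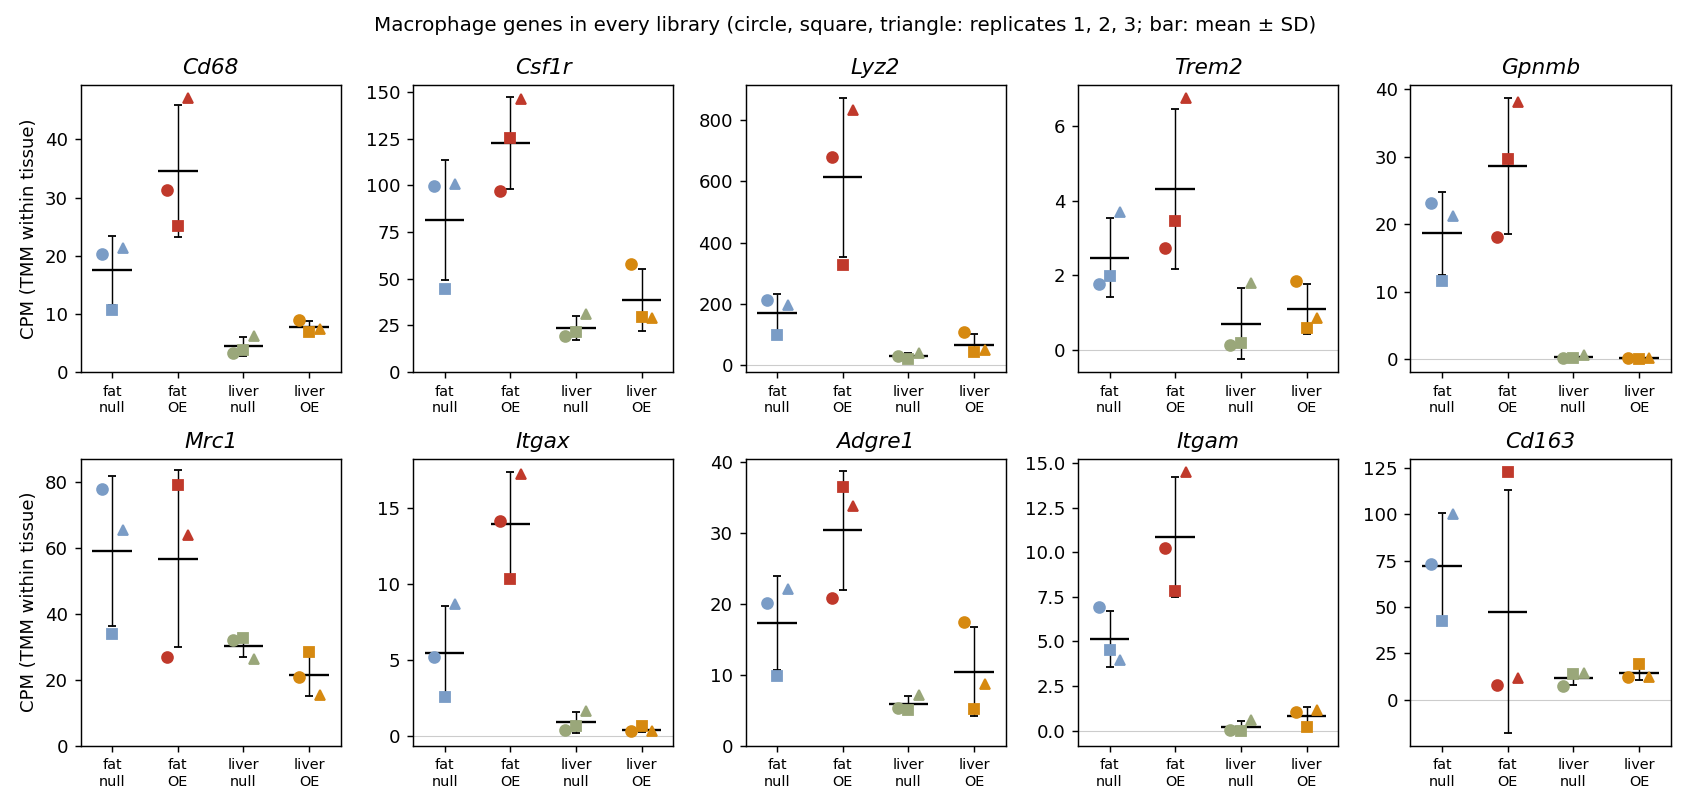
CPM of each macrophage gene (linear axis, TMM scaling within each tissue) in the 12 libraries by tissue and vector, with circles, squares and triangles for replicates 1, 2 and 3 and black bars for the mean ± SD of 3 libraries. In fat, Lyz2, Itgax, Itgam and Cd68 have every hHKDC1 OE point above every null point, whereas Cd163 has hHKDC1 OE points at 8.05, 11.7 and 123 CPM.

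Lyz2 encodes lysozyme M, a bacteriolytic enzyme of macrophages, monocytes and neutrophils, and it was the most abundant of the 10 genes in fat. Its CPM were 211, 97.1 and 196 in null replicates 1, 2 and 3 and 680, 326 and 833 in hHKDC1 OE replicates 1, 2 and 3. The groups did not overlap, and hHKDC1 OE replicate 2 lay closest to the null libraries. The means were 168 ± 62.0 and 613 ± 260.0 CPM (SD, n = 3 each), a log2 fold change of 1.87 ± 0.43 (SE) with an adjusted p of 0.134 from edgeR and 3.1e-04 from DESeq2. Without hHKDC1 OE replicates 1 and 3, an alternative chosen after seeing the data that leaves 1 hHKDC1 OE library, the estimate was 0.95 with an edgeR adjusted p of 0.897. The exact permutation test of the CPM gave p = 0.1, which is the smallest that 3 libraries against 3 allow.

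Lyz2 lies on chromosome 10 (GRCm38, 117277331 to 117282321, minus strand) beside a near-identical copy, Lyz1 (117287797 to 117292868), so reads could be split between the 2 genes. Their coding sequences in the GENCODE transcripts are 447 bases each and 95.1% identical, and no stretch of 150 bases, the length of 1 read, is the same in both transcripts. The first 90 coding bases show how the copies can be told apart, with the 7 differing bases in capitals.
Lyz2: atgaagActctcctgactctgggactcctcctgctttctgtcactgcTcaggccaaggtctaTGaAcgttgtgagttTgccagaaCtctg
Lyz1: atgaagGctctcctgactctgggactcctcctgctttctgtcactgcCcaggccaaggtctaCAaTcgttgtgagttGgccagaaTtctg
The counts of Lyz1 were 5.72% to 9.64% of those of Lyz2 in the 6 fat libraries and 0% to 0.33% in the 6 liver libraries. Lyz1 was 9.36 to 19.2 CPM in null fat and 27.6 to 50.3 CPM in hHKDC1 OE fat, so the copy with fewer reads was also higher in every hHKDC1 OE library than in every null library.

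The integrin subunits showed the same order of groups. Itgam encodes CD11b, the alpha chain of complement receptor 3, and measured 6.93, 4.53 and 3.96 CPM in null fat against 10.2, 7.82 and 14.5 CPM in hHKDC1 OE fat. The means of 5.14 ± 1.58 and 10.9 ± 3.39 CPM (SD, n = 3 each) differed by 1.08 ± 0.35 (SE) on the log2 scale, with an adjusted p of 0.196 from edgeR and 0.0475 from DESeq2. Itgax encodes CD11c, the alpha chain of complement receptor 4, and measured 5.23, 2.54 and 8.67 CPM in null fat against 14.2, 10.4 and 17.3 CPM in hHKDC1 OE fat. Here the highest null library was close to the lowest hHKDC1 OE library. The log2 fold change of Itgax was 1.34 ± 0.46 (SE), with an adjusted p of 0.211 from edgeR and 0.0542 from DESeq2. Cd68, a lysosomal sialomucin widely used to mark macrophages, was 20.3, 10.7 and 21.4 CPM in null fat and 31.4, 25.2 and 47.2 CPM in hHKDC1 OE fat. Its groups did not overlap either, and the log2 fold change was 0.98 ± 0.34 (SE) with an adjusted p of 0.213 from edgeR. For each of Itgam, Itgax and Cd68 the exact permutation p was 0.1.

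The 4 genes with non-overlapping groups differed in the sequence just upstream of their starts. The 250 bases before the RefSeq start (GRCm38.p6) were searched on both strands for GAGGAA, the core of the element bound by the myeloid factor PU.1, and for TCACGTG, an E-box form bound by the MITF and TFE factors that drive lysosomal genes. GAGGAA was in 23.3% of 32851 such windows and in 4 of the 8 macrophage genes with a window (Cd68, Itgam, Mrc1 and Trem2). TCACGTG was in 3.13% of all windows and in 0 of the 8. Matches of the 2 motifs could share end bases, which did not arise here. The windows of Adgre1 and Csf1r were not used here. The sequences of the 4 genes are shown on the gene's strand up to the RefSeq start or, where it came first, the start in the count table, with matches to GAGGAA or its reverse complement in capitals.
Cd68 (chr11:69666171-69666420, minus strand): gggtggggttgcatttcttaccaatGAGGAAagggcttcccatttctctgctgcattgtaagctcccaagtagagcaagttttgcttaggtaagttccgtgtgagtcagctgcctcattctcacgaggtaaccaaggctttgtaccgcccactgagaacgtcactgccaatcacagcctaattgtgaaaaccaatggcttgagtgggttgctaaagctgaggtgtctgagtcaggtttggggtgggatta
Lyz2 (chr10:117282322-117282522, minus strand): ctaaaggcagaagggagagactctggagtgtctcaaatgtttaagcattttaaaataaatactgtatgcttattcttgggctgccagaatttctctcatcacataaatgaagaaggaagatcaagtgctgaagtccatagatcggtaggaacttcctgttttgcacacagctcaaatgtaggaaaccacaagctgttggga
Itgax (chr7:128129300-128129546, plus strand): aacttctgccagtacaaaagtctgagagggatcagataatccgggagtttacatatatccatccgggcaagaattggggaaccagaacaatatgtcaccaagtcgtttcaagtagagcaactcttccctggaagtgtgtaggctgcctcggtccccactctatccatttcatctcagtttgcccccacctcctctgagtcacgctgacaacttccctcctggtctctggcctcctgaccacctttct
Itgam (chr7:128062390-128062639, plus strand): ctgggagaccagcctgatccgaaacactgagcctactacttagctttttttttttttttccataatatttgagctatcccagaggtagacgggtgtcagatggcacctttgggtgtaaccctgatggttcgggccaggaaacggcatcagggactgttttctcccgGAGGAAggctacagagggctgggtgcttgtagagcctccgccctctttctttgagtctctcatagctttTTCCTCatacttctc
Itgam held 2 matches, Cd68 held 1, and Lyz2 and Itgax held 0 in these windows. A match describes the letters only, and its absence says nothing of whether the factor acts on the gene.

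Csf1r and Adgre1, the receptor for CSF1 and IL-34 and the adhesion receptor F4/80, had overlapping groups in fat. Csf1r was 99.6, 44.3 and 101 CPM in null replicates 1, 2 and 3 and 97.1, 125 and 146 CPM in hHKDC1 OE replicates 1, 2 and 3. Adgre1 was 20.1, 9.80 and 22.1 CPM in null fat and 20.8, 36.4 and 33.8 CPM in hHKDC1 OE fat. In both genes null replicate 2 was the lowest library, and hHKDC1 OE replicate 1 lay within the null range. Log2 fold changes were 0.59 ± 0.33 (SE) for Csf1r and 0.80 ± 0.35 (SE) for Adgre1, with edgeR adjusted p of 0.380 and 0.292. The body of Csf1r overlaps Hmgxb3 on the opposite strand, a gene with 119 to 505 counts per library, and the libraries hold no strand information. Some reads of that locus could therefore not be assigned to a strand.

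Among genes of lipid-associated macrophages, Trem2, a lipid-sensing receptor, was low. Null fat held 29, 32 and 69 counts of it and hHKDC1 OE fat held 58, 71 and 110, or 1.76, 1.98 and 3.69 CPM against 2.75, 3.47 and 6.76 CPM. The groups overlapped, and the log2 fold change was 0.80 ± 0.49 (SE) with an edgeR adjusted p of 0.416. Gpnmb, a transmembrane glycoprotein of lipid-laden macrophages, was 23.1, 11.6 and 21.2 CPM in null fat and 18.05, 29.6 and 38.1 CPM in hHKDC1 OE fat. In Gpnmb, hHKDC1 OE replicate 1 lay below 2 of the 3 null libraries, and the log2 fold change was 0.62 ± 0.35 (SE) with an edgeR adjusted p of 0.389.

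**Figure D2:**
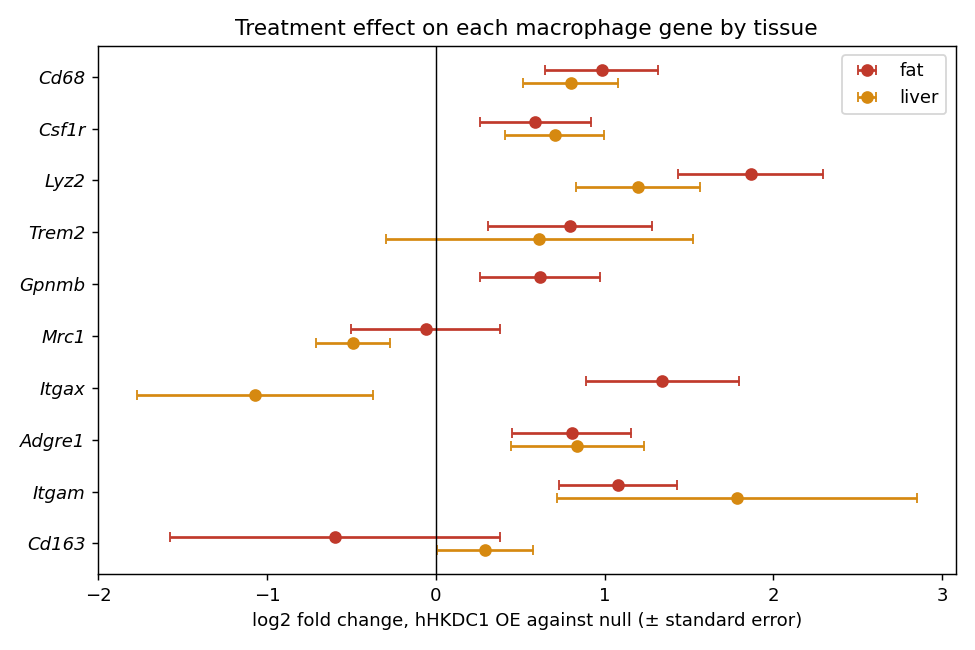
Log2 fold change of hHKDC1 OE against null for each macrophage gene in fat (red) and liver (orange), with bars of 1 standard error from the edgeR fit of 3 against 3 libraries. Lyz2 has the highest estimate in fat at 1.87, the bars of Cd163 in fat are the widest of that tissue, and Gpnmb has no liver value because its counts were under the filter.

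Cd163 and Mrc1 were the 2 macrophage genes with a lower estimate in fat, neither with a change beyond its error over the 6 libraries. Cd163, the haptoglobin-hemoglobin receptor of resident macrophages, was 73.4, 42.4 and 100.2 CPM in null replicates 1, 2 and 3 and 8.05, 123 and 11.7 CPM in hHKDC1 OE replicates 1, 2 and 3. Replicates 1 and 3 of hHKDC1 OE thus lay below every null library, and replicate 2 lay above all of them. Its log2 fold change over the 6 libraries was -0.60 ± 0.98 (SE), with an edgeR adjusted p of 0.762. Without hHKDC1 OE replicate 2 the estimate was -2.88 with an edgeR adjusted p of 0.00528, and that fit called 7.53% of all tested genes lower and 11.4% higher. The same fit called Lyz2 (2.16 on the log2 scale, adjusted p of 0.00741) and Itgam (1.26, adjusted p of 0.0446) as higher. Without replicates 1 and 3 the Cd163 estimate was 0.77, with an adjusted p of 0.897. The direction of Cd163 thus depended on which hHKDC1 OE libraries were counted.

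Mrc1, the mannose receptor, was 77.8, 33.9 and 65.4 CPM in null fat and 26.9, 79.1 and 63.9 CPM in hHKDC1 OE fat. As with Cd163, replicate 2 was the highest of the 3 hHKDC1 OE libraries, but replicate 3 lay within the null range. The log2 fold change was -0.06 ± 0.44 (SE), with an edgeR adjusted p of 0.950.

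**Figure D3:**
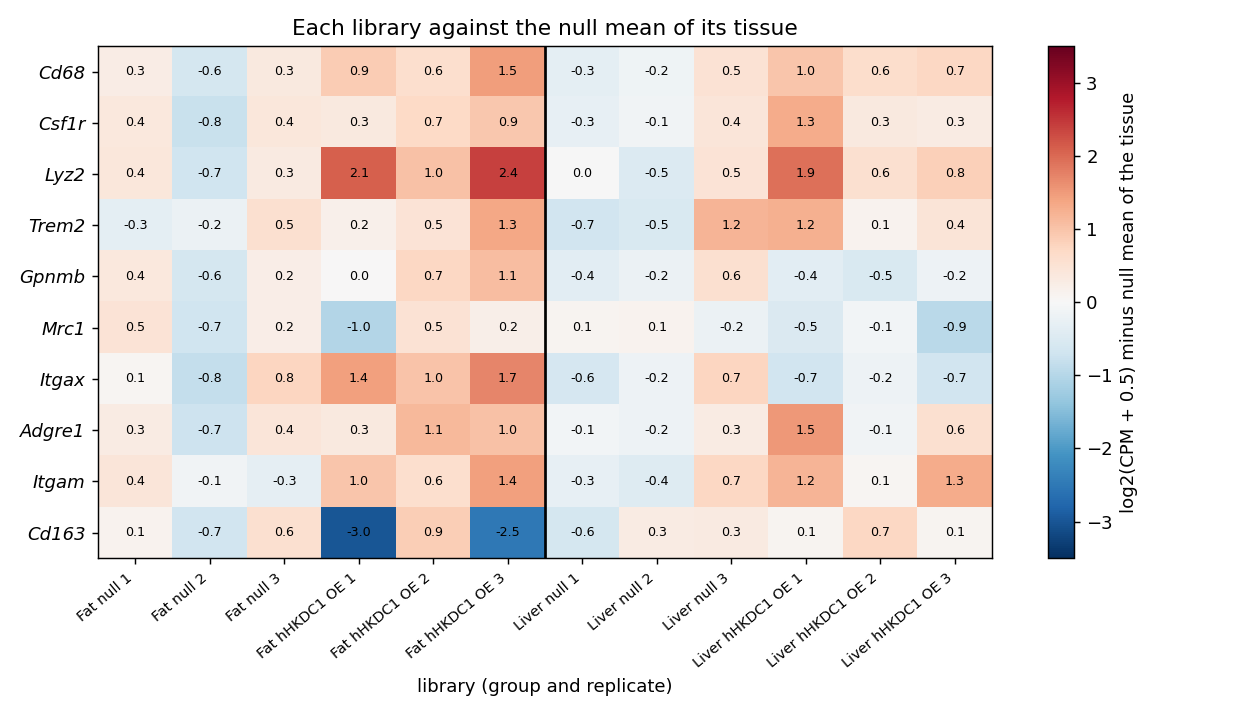
Log2(CPM + 0.5) of each macrophage gene in each library minus the mean of the null libraries of the same tissue, with red above and blue below that mean and the value printed in each cell. In hHKDC1 OE fat, replicates 1 and 3 are positive for Lyz2, Itgax, Itgam and Cd68 and at -3.0 and -2.5 for Cd163, and in liver hHKDC1 OE replicate 1 is the most positive library for Lyz2, Csf1r and Adgre1.

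Setting each gene against Csf1r in the same library removed the scaling between libraries. Cd163 counts were 73.6%, 95.8% and 99.6% of Csf1r counts in null replicates 1, 2 and 3, and 8.29%, 98.4% and 8.0% in hHKDC1 OE replicates 1, 2 and 3. In this measure null replicate 2, which was low in nearly all macrophage genes, no longer stood apart, and hHKDC1 OE replicate 2 was within the null range. Mrc1 counts were 78.1%, 76.6% and 65.0% of Csf1r counts in null fat, against 27.7%, 63.3% and 43.8% in hHKDC1 OE fat. Csf1r itself had a higher estimate in hHKDC1 OE fat, at 0.59 on the log2 scale, and the CPM of Mrc1 overlapped between the groups. Lyz2 counts were 212%, 219% and 195% of Csf1r counts in null fat, against 700.3%, 261% and 571% in hHKDC1 OE fat. The ratio of Gpnmb to Csf1r moved less, from 21.1% to 26.2% in null fat and from 18.6% to 26.1% in hHKDC1 OE fat. Adgre1 was likewise at 20.2% to 22.1% of Csf1r in null fat and 21.4% to 29.1% in hHKDC1 OE fat. Itgam, Itgax and Cd68 had overlapping groups in this measure. In hHKDC1 OE replicate 2 they were at 6.25%, 8.29% and 20.1% of Csf1r, where null fat reached 10.2%, 8.62% and 24.2%. The macrophage genes therefore did not move by 1 common factor in replicates 1 and 3.

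**Figure D4:**
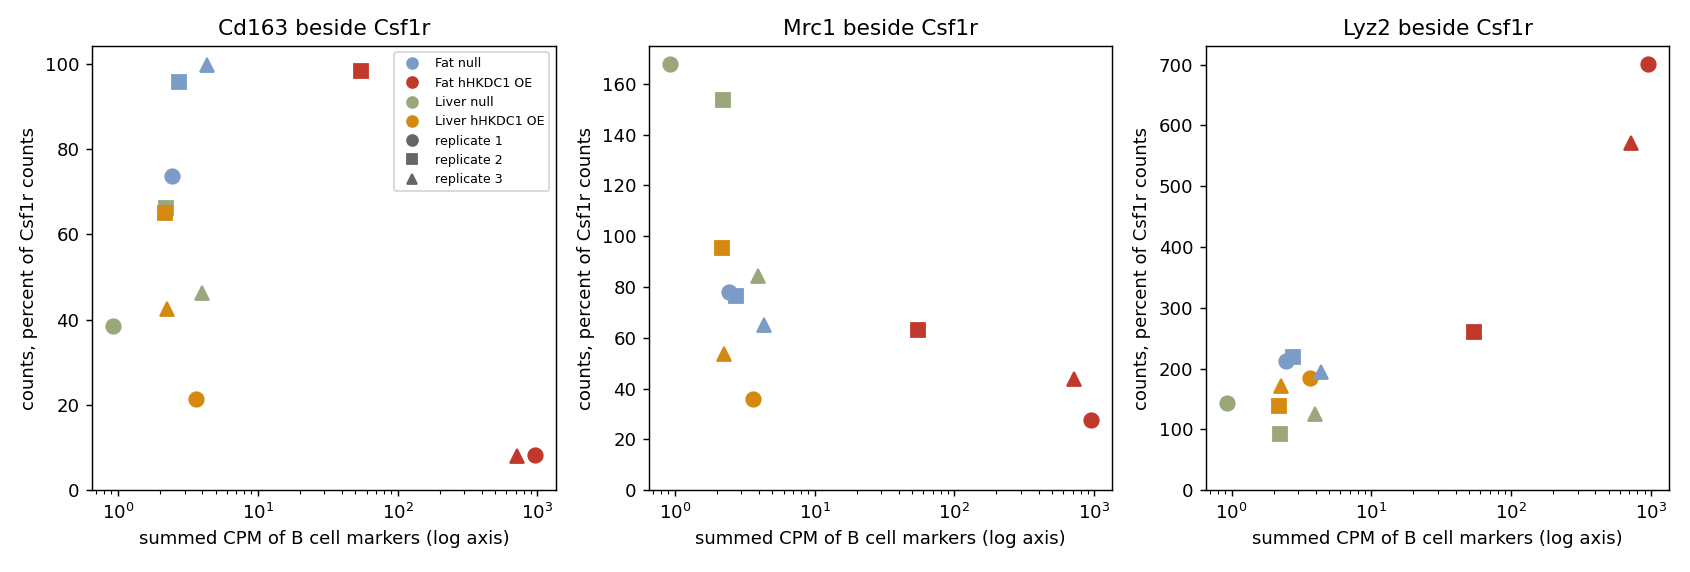
Counts of Cd163, Mrc1 and Lyz2 as a percent of Csf1r counts (linear axis from 0) against the summed CPM of 10 B cell markers (log axis) in the 12 libraries, colored by tissue and vector and shaped by replicate. The 2 fat libraries with the highest B cell sums, hHKDC1 OE replicates 1 and 3, have the lowest Cd163 shares (8.29% and 8.0%) and the highest Lyz2 shares (700.3% and 571%).

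The libraries with low Cd163 were the libraries with high B cell, T cell and lymph node marker sums. Markers of lymph node macrophages and conventional dendritic cells summed to 54.8 to 61.4 CPM in null fat and to 443, 96.7 and 372 CPM in hHKDC1 OE replicates 1, 2 and 3. Of these 8 markers, 8 had a higher estimate in hHKDC1 OE fat and 6 did so at an unadjusted p under 0.05, where 11.3% of all genes were higher. Ccr7 and Xcr1, at 0.248 to 0.802 and 0.267 to 0.426 CPM in null fat, were tested through their hHKDC1 OE counts. Marco, a scavenger receptor of lymph node and marginal zone macrophages and of Kupffer cells, was 0.912 to 1.44 CPM in null fat and 235, 15.6 and 90.5 CPM in hHKDC1 OE fat. Ccr7, the homing receptor of lymphocytes and migrating dendritic cells, was 0.248 to 0.802 CPM in null fat and 89.96, 6.84 and 103 CPM in hHKDC1 OE fat. Of 9 Kupffer cell markers, 8 had a higher estimate in hHKDC1 OE fat and 5 did so at an unadjusted p under 0.05, namely Marco, Timd4, Cd5l, C1qc and C1qa, which macrophages outside the liver also express. Their sums were 205, 132 and 302 CPM in null fat and 729, 369 and 618 CPM in hHKDC1 OE fat. Clec4f and Vsig4, the 2 markers of that list with the largest p, were 0.558 to 4.87 CPM and 0.124 to 1.77 CPM in null fat, and 1.12 to 3.20 CPM and 0.391 to 1.11 CPM in hHKDC1 OE fat. Neutrophil markers summed to 4.09 to 6.08 CPM in null fat and to 11.6 to 32.4 CPM in hHKDC1 OE fat. The part of lymphoid and lymph node RNA in the macrophage results was not tested. With hHKDC1 OE replicates 1 and 3 left out, the median log2 fold change of the 10 genes was 0.64 and 0 of them were higher at an unadjusted p under 0.05, where 2.39% of all genes were.

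Beyond the 10 genes, lists of related genes were counted in fat, all by an unadjusted p under 0.05 since no gene passed the adjusted threshold. Over all tested genes, 11.3% were higher and 6.39% lower by that threshold. Among 19 genes shared by mononuclear phagocytes, 12 were higher and 1 lower, and the median log2 fold change was 1.61. The 3 with the smallest p were Ctss, a lysosomal protease of antigen-presenting cells, at 2.81 ± 0.58 (SE), Mpeg1, a pore-forming protein of phagocytes, at 1.85 ± 0.39 (SE), and Tyrobp at 1.61 ± 0.35 (SE). The 1 lower gene was Mertk, a receptor for the uptake of dying cells, at -1.05 ± 0.32 (SE), and it is named here after its value was seen. Several genes of this list, among them Ctss and Laptm5, are also expressed by B cells. Their values in hHKDC1 OE replicate 2 were nearer to null: Ctss was 18.4 to 34.1 CPM in null fat and 228, 62.6 and 311 CPM in hHKDC1 OE replicates 1, 2 and 3.

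The ligands and adaptors of the receptors split. Csf1, a ligand of CSF1R, was 35.2 to 51.6 CPM in null fat and 44.0 to 56.7 CPM in hHKDC1 OE fat, with a log2 fold change of 0.21 ± 0.19 (SE) and an unadjusted p of 0.289. Il34, the second ligand, was 24.6 to 31.0 CPM in null fat and 17.1, 25.6 and 14.0 CPM in hHKDC1 OE fat, with a log2 fold change of -0.52 ± 0.25 (SE) and an unadjusted p of 0.0812. Tyrobp encodes DAP12, through which TREM2 signals, and was 10.3, 6.70 and 13.5 CPM in null fat against 34.8, 20.04 and 38.7 CPM in hHKDC1 OE fat. Its groups did not overlap, whereas those of Trem2 did. Hcst encodes DAP10, a related adaptor that T and NK cells also carry, and was 0.248 to 1.18 CPM in null fat against 20.8, 2.40 and 14.9 CPM in hHKDC1 OE fat. Hcst was thus highest in the libraries with the highest lymphoid sums, and its log2 fold change was 4.08 ± 0.90 (SE).

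Of 14 genes of lipid-associated macrophages, 0 passed an unadjusted p of 0.05 in either direction, 4 were higher and 10 lower in estimate, and the median log2 fold change was -0.11. The 3 with the smallest p were Atp6v0d2, a subunit of the lysosomal proton pump, at 1.17 ± 0.52 (SE), Lpl, lipoprotein lipase, at -0.78 ± 0.41 (SE), and Fabp5, a fatty acid carrier, at 0.31 ± 0.18 (SE). Lpl was 10597 to 13054 CPM in null fat and adipocytes express it, as they do Plin2 and Cd36, so these values do not measure macrophages alone. Cd9, a tetraspanin of these cells, was 28.1 to 47.1 CPM in null fat and 24.8 to 41.3 CPM in hHKDC1 OE fat. Spp1, osteopontin, was 3.53 to 12.8 CPM in null fat and 1.42 to 9.34 CPM in hHKDC1 OE fat.

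Of 11 genes of resident or alternatively activated macrophages, 2 were higher and 0 lower at an unadjusted p under 0.05, near the 11.3% of all genes that were higher, with a median of -0.24. Timd4, a phosphatidylserine receptor of resident, lymph node and Kupffer macrophages, had a log2 fold change of 4.66 ± 1.02 (SE), and Chil3 one of 2.84 ± 0.90 (SE). Chil3 was 0.107 to 0.790 CPM in null fat, so its test rests on its hHKDC1 OE counts. Retnla, a secreted protein of alternatively activated macrophages, was 278, 73.9 and 233 CPM in null fat and 14.4, 308 and 16.9 CPM in hHKDC1 OE fat. Mgl2, a galactose-type lectin, was 36.4, 16.7 and 35.2 CPM in null fat and 7.06, 55.1 and 11.6 CPM in hHKDC1 OE fat. F13a1, the factor XIII A chain of resident macrophages, was 90.7, 31.6 and 70.2 CPM in null fat and 16.3, 84.8 and 27.4 CPM in hHKDC1 OE fat. Gas6, a ligand of the receptors AXL and MERTK, was 137, 97.1 and 108 CPM in null fat and 84.6, 128 and 77.6 CPM in hHKDC1 OE fat. These 4 genes, named after their values were seen, were below every null library in hHKDC1 OE replicates 1 and 3 but not in replicate 2. Of the 10 macrophage genes Cd163 alone had this order, and 14.9% of all tested genes had it. So did 5 of 8 adipocyte markers (Adipoq, Cidec, Lep, Lipe and Retn) and 3 of 5 endothelial markers (Cdh5, Tek and Tie1), so the order was not one of macrophage genes alone. The other 7 genes of the list did not, Lyve1 (-0.27 ± 0.30 on the log2 scale), Pf4 (0.05 ± 0.55) and Cbr2 (-0.32 ± 0.30, SE) among them. Clec10a was 13.02 to 35.4 CPM in null fat and 29.8, 41.1 and 46.7 CPM in hHKDC1 OE fat, with a log2 fold change of 0.65 ± 0.36 (SE), and Folr2 was 0.992 to 5.08 CPM and 4.31, 5.28 and 3.07 CPM.

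Of 9 genes of classically activated macrophages, only 4 passed the filter on low counts, with 2 of them higher at an unadjusted p under 0.05. Cd40, a costimulatory receptor that B cells carry, was 0.372 to 1.66 CPM in null fat and 22.8, 3.32 and 24.5 CPM in hHKDC1 OE fat. Cd86, a costimulatory ligand, was 2.79 to 5.30 CPM in null fat and 16.1, 5.13 and 28.2 CPM in hHKDC1 OE fat, so that replicate 2 lay within the null range. Cd80 had a log2 fold change of 1.11 ± 0.64 (SE) with an unadjusted p of 0.126.

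**Figure D5:**
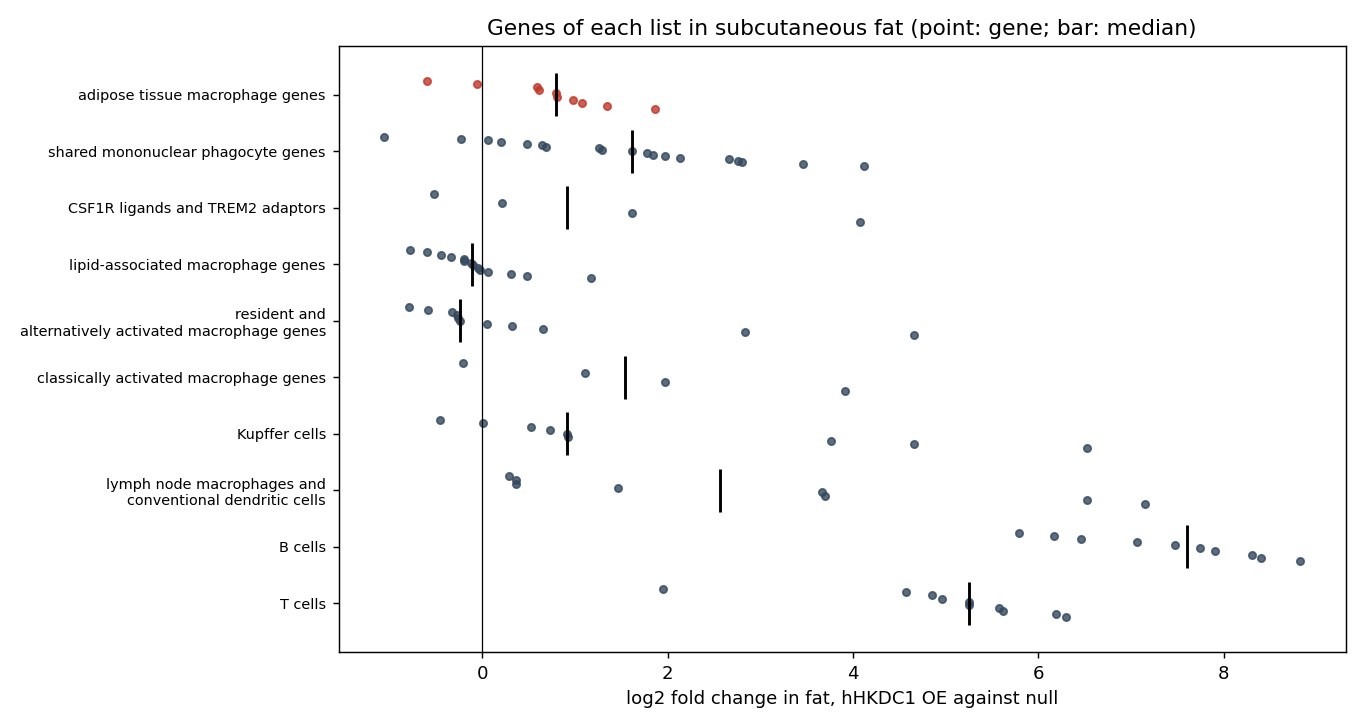
Log2 fold change of hHKDC1 OE against null in fat for every tested gene of the 10 macrophage genes (red), 5 lists of related genes and 4 lists of cell type markers (dark), with a black bar at each list's median. The medians run from -0.24 for resident and alternatively activated genes and -0.11 for lipid-associated genes to 5.26 for T cell and 7.61 for B cell markers, with the 10 macrophage genes at 0.80.

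The genes whose profile over the 6 fat libraries was nearest to that of Lyz2, by the root mean square difference of log2(CPM + 0.5) after subtraction of each gene's own mean over those libraries, were Evi2a (0.10), Traf5 (0.12), Spi1 (0.15), Rassf2 (0.16) and Pik3ap1 (0.17). Their log2 fold changes lay between 1.69 and 2.05. Spi1 encodes PU.1 and was 6.95 to 13.1 CPM in null fat and 55.3, 19.1 and 55.5 CPM in hHKDC1 OE fat. Nearest to Itgam were Pard6b (0.09), Tgfa (0.11), Sap30 (0.12), Rab8b (0.15) and Gm10591 (0.16). These are descriptions over 6 libraries that share their depth and marker sums.

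In liver, 7 of the 9 macrophage genes tested had a higher estimate in hHKDC1 OE, with a median log2 fold change of 0.70 against 0.01 over all 13351 genes tested. Gpnmb, with 1 to 11 counts per liver library, was under the filter. By edgeR's adjusted p, 0 macrophage genes and 0.0% of all genes were called in either direction. At an unadjusted p under 0.05, 3 macrophage genes were higher and 0 lower, where 3.89% of all genes were higher and 3.05% lower. DESeq2 called 0 macrophage genes and 90 genes in all. Lyz2 was 27.3, 19.7 and 38.9 CPM in null liver and 107, 41.1 and 49.1 CPM in hHKDC1 OE liver, a log2 fold change of 1.20 ± 0.37 (SE) with an edgeR adjusted p of 0.543. Cd68 was 3.27, 3.78 and 6.26 CPM in null liver and 8.92, 6.86 and 7.41 CPM in hHKDC1 OE liver, a log2 fold change of 0.80 ± 0.28 (SE) with an edgeR adjusted p of 0.606. In both genes every hHKDC1 OE library lay above every null library, as in 6.31% of all tested genes, and the exact permutation p was 0.1.

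Csf1r, the third gene, was 19.0, 21.2 and 31.1 CPM in null liver and 58.0, 29.6 and 28.7 CPM in hHKDC1 OE liver. Its groups overlapped and the highest value came from hHKDC1 OE replicate 1, with a log2 fold change of 0.70 ± 0.29 (SE) and an edgeR adjusted p of 0.679. Adgre1 was 5.31, 5.02 and 7.13 CPM in null liver and 17.4, 5.21 and 8.69 CPM in hHKDC1 OE liver, again with replicate 1 highest. Without hHKDC1 OE replicate 1 the median over the tested macrophage genes was 0.30 and 1 of them was higher at the unadjusted threshold, as were 2.78% of all genes. The number was also 1 without null replicate 1 (3.1% of all genes) or null replicate 2 (2.75%), and 5 without null replicate 3 (4.66%). When low genes were not filtered, edgeR called 2 of the 10 genes, Csf1r with an adjusted p of 0.0120 and Lyz2 with one of 3.6e-08, among 327 genes called. The number of genes tested in that fit is not given here. With the filter their edgeR adjusted p were 0.679 and 0.543, and the exact permutation p of Lyz2 was 0.1, so these calls depended on the filter. Mrc1 was 31.9, 32.6 and 26.2 CPM in null liver and 20.9, 28.3 and 15.4 CPM in hHKDC1 OE liver, a log2 fold change of -0.49 ± 0.22 (SE) with an edgeR adjusted p of 0.716. Liver libraries of the same number deviated together, but they come from mice with different vectors and no label pairs them. Taken by number, Mrc1 was lower in hHKDC1 OE in 3 of 3 and Adgre1 higher in 3 of 3, with replicate 2 of Adgre1 at 5.02 and 5.21 CPM. Itgam was likewise higher and Itgax lower in 3 of 3. With the number as a block edgeR gave -0.53 (adjusted p of 0.416) for Mrc1 and 0.69 (adjusted p of 0.621) for Adgre1 on the log2 scale. Cd163 was 7.35 to 14.4 CPM in null liver and 12.2 to 19.3 CPM in hHKDC1 OE liver, with no library as low beside the others as hHKDC1 OE replicates 1 and 3 in fat.

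Trem2, Itgax and Itgam were scarce in liver, with 2 to 30, 5 to 27 and 0 to 22 counts per library. Their log2 fold changes of 0.61 ± 0.91, -1.07 ± 0.70 and 1.78 ± 1.06 (SE) had adjusted p of 0.937, 0.824 and 0.807 from edgeR. Leaving out 1 library at a time gave 0.02 to 2.72 for Trem2, -1.50 to -0.26 for Itgax and 1.24 to 4.39 for Itgam, and without null replicate 3 they were 2.72, -0.26 and 4.39.

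Markers of other liver cells were counted beside the macrophage genes, and 0 of them passed an adjusted p of 0.05 by edgeR. All 9 Kupffer cell markers had a higher estimate in hHKDC1 OE liver and 7 did so at an unadjusted p under 0.05, where 3.89% of all genes were higher and 3.05% lower. Clec4f was 38.7 to 70.0 CPM in null liver and 114, 70.1 and 71.1 CPM in hHKDC1 OE liver, with a log2 fold change of 0.73 ± 0.26 (SE), and Vsig4 was 8.40 to 13.6 CPM against 30.2, 15.3 and 16.5 CPM, at 0.85 ± 0.29 (SE). The Kupffer sums were 132, 174 and 269 CPM in null liver and 509, 256 and 250 CPM in hHKDC1 OE liver, so that replicate 1 alone lay above the null range. The same library was highest in the sum of lymph node macrophage and dendritic cell markers, at 56.1 CPM against 5.68 to 21.5 CPM in the other 5 liver libraries. Of that 56.1 CPM, 41.3 CPM came from Marco, which is also in the Kupffer list. Hepatocyte markers summed to 117133 to 121612 CPM in null liver and to 75995 to 99387 CPM in hHKDC1 OE liver, without overlap, and 6 of 9 tested had a lower estimate. Endothelial markers, which bear on Mrc1, had a lower estimate for 5 of 5 genes, at an unadjusted p under 0.05 for 4. Their sums were 60.0 to 96.0 CPM in null and 36.2 to 64.6 CPM in hHKDC1 OE liver. The part of these cell types in the macrophage gene values was not tested. Of the lists of related genes, those at an unadjusted p under 0.05 in liver were 2 of 17 shared phagocyte genes (Cybb at 0.83 and Fcgr3 at 0.82 on the log2 scale), 0 of 13 lipid-associated genes, and 3 of 5 resident genes (Timd4 at 1.49, Folr2 at 1.39 and Lyve1 at -1.12). Of 2 classically activated genes tested, Il1b at 1.72 was below that threshold, and of 3 ligand and adaptor genes 0 were. Il1b and Folr2, at 0.261 to 0.558 and 0.456 to 0.679 CPM in null liver, were tested through their hHKDC1 OE counts. None of these list genes passed an adjusted p of 0.05 by edgeR.

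The treatment effects in the 2 tissues were then compared with an interaction term over the 12 libraries, where 17070 genes were tested. No macrophage gene and 0.0% of all genes in either direction passed an adjusted p of 0.05 in edgeR, and DESeq2 called 0 of the 10 and 493 genes in all. At an unadjusted p under 0.05 the effect was higher in fat than in liver for Itgax and Gpnmb and lower for 0 macrophage genes, where it was higher for 9.0% and lower for 3.67% of all genes. Itgax differed by 2.50 ± 0.82 (SE) on the log2 scale, with an unadjusted p of 0.0101 and an adjusted p of 0.228 by edgeR. Gpnmb differed by 2.02 ± 0.88 (SE), with an unadjusted p of 0.0396 and an adjusted p of 0.367 by edgeR. Gpnmb, under the filter in liver alone, was tested here only through its fat counts. Both genes had few counts in liver. A filter of at least 10 counts in every library removes both before any test, and with it 0 macrophage genes were under that threshold. For Lyz2, Cd68, Csf1r and Adgre1 the differences between tissues were 0.75 ± 0.63, 0.26 ± 0.47, -0.04 ± 0.49 and 0.04 ± 0.60 (SE), and for Mrc1, Trem2, Itgam and Cd163 they were 0.51 ± 0.53, 0.24 ± 1.15, -0.65 ± 1.11 and -0.82 ± 1.11 (SE). Without fat hHKDC1 OE replicate 2, Cd163 was the 1 macrophage gene called in this comparison, at -3.30 with an edgeR adjusted p of 0.00462, among 1211 genes.

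In the null mice alone, all 10 macrophage genes had a higher estimate in fat than in liver, with a median log2 difference of 1.33 against 0.09 over 15259 genes. By edgeR's adjusted p, 5 of the 10 were called higher in fat and 0 lower, where 33.8% of all genes were called higher and 30.5% lower. The 5 called were Gpnmb at 4.84 ± 0.56 (SE, adjusted p of 1.59e-04), Itgam at 3.52 ± 0.88 (adjusted p of 0.00823), Cd163 at 1.66 ± 0.36 (adjusted p of 0.00403), Lyz2 at 1.62 ± 0.34 (adjusted p of 0.00378) and Cd68 at 1.04 ± 0.35 (adjusted p of 0.0308). Csf1r at 0.84 ± 0.33 (SE) and Itgax at 1.67 ± 0.65 (SE) lay just short of being called, with edgeR adjusted p of 0.0516 and 0.0510. DESeq2 called both (adjusted p of 0.0238 and 0.0173), with 7 of the 10 and 9989 genes in all, and edgeR also called both with upper-quartile or RLE normalization and without a filter on low counts. Adgre1 differed by 0.64 ± 0.33, Trem2 by 0.88 ± 0.88 and Mrc1 by 0.03 ± 0.28 (SE). Of the 5 genes called, only Cd163, Lyz2 and Cd68 had at least 10 counts in every null library. Gpnmb, Itgam, Itgax and Trem2 had fewer than 10 counts in at least 1 null liver library, so their tests rest on their fat counts. Leaving out 1 library at a time moved these 4 widely, over ranges of 4.44 to 5.88 for Gpnmb, 2.95 to 6.19 for Itgam, 1.19 to 2.47 for Itgax and 0.37 to 2.98 for Trem2, each highest without liver null replicate 3. These differences depended on the scaling: with library size alone the median over all genes moved from 0.09 to 0.98, that of the macrophage genes was 2.23, and 9 of the 10 were called higher, all but Trem2, where 59.1% of all genes were called higher and 15.0% lower. The number called was 8 without liver null replicate 3 (31.8% of all genes called higher) and 8 without fat null replicate 2 (31.0%). It was 4 without any 1 of the other 4 libraries, since Cd68 was then no longer called (edgeR adjusted p of 0.0746 to 0.105). Cd163 was not called with the 12 libraries in 1 fit (edgeR adjusted p of 0.0927).

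Levels were compared between genes on the deposited FPKM scale, which divides by gene length. In null fat the order was Lyz2 at 95.1 ± 36.1 FPKM, Csf1r at 12.4 ± 5.07, Cd68 at 10.3 ± 3.63, Cd163 at 9.83 ± 4.13, Mrc1 at 6.89 ± 2.70, Adgre1 at 3.99 ± 1.58, Gpnmb at 2.13 ± 0.73, Itgax at 0.852 ± 0.493, Itgam at 0.757 ± 0.230 and Trem2 at 0.373 ± 0.167 FPKM (SD, n = 3). In the range of the 3 libraries Lyz2 lay above all others, and Trem2 lay below its neighbor Itgam but overlapped Itgax, though it was below Itgax within each library. Each of the 8 genes between Lyz2 and Trem2 overlapped its neighbors among those 8, and the ranges of Csf1r, Cd68, Cd163 and Mrc1 all overlapped. Within each of the 3 libraries, however, Csf1r was the highest of those 4 and Mrc1 the lowest, whereas Cd68 and Cd163 changed places. In hHKDC1 OE fat Lyz2 was at 329 ± 130.1 FPKM, followed in the mean by Cd68 at 19.5 ± 5.86 and Csf1r at 17.96 ± 3.68. The ranges of Cd68 and Csf1r overlapped (15.1 to 26.1 and 13.8 to 20.8 FPKM), and in replicate 2 Csf1r was above Cd68. Cd163 was at 1.02, 16.9 and 1.49 FPKM in replicates 1, 2 and 3. In hHKDC1 OE liver Lyz2 was again highest at 67.1 ± 37.8 FPKM, ahead of Csf1r at 10.6 ± 4.73 and Cd68 at 8.22 ± 1.27, whose ranges overlapped. Gpnmb was lowest there at 0.0267 ± 0.0166 FPKM.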

How the data were processed

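Subcutaneous fat and liver RNA were sequenced from null and hHKDC1 OE mice, with 3 libraries per tissue and vector. Groups came from the sample titles and treatment labels. Per the methods, the libraries were not strand-specific, and the authors mapped paired reads of 150 bases with STAR, counted them per gene with HTSeq and tested them with DESeq2; the submitters' processing notes give STAR 2.5, HTSeq 0.6.1 and DESeq2. The methods name a human reference, whereas the identifiers in the table are those of mouse, and 98.11% of the rows are placed identically in GENCODE mouse release 21 (GRCm38). The deposited counts are whole numbers with no normalization. The deposited FPKM values equal the counts divided by gene length and by DESeq2 size factors over the 12 libraries, within 1% for 100% of 252371 values above 0. Columns holding the authors' own comparisons (fold changes and p-values) were not used.

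The counts were tested with edgeR 4.0.16 (R 4.3.3, quasi-likelihood F-test, TMM normalization, filterByExpr, Benjamini-Hochberg adjustment over all genes tested), each comparison fitted on its own libraries and the interaction on all 12. A gene was called at an adjusted p under 0.05. Single genes also had an exact two-sided permutation test of CPM, whose smallest possible p for 3 libraries against 3 is 0.1. The alternatives were DESeq2 1.42.0, other normalizations and filters, limma 3.58.1 on log2(FPKM + 1) and log2(FPKM + 0.1) (mean FPKM at or above 0.1), 1 fit over 12 libraries, the replicate number as a block, and each library left out in turn. Each fit was tested on simulated counts first. Sequences came from RefSeq (GRCm38.p6) promoter windows, present for 8 of the 10 genes, and from GENCODE transcripts.

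All 10 genes were named in each comparison, with up to 3 genes of smallest unadjusted p in fat from each list, the genes with the nearest profiles, Lyz1 and Tyrobp; every other list gene or marker given was named after its values were seen. The members and lists were chosen with earlier results of these data known. From the list of resident and alternatively activated genes, 1 gene was left out and is not reported here. The study gives 3 mice per group for the fat sequencing; the sources used here do not say so for liver, nor whether fat and liver libraries of the same number share a mouse, so that p-values in liver measure the spread between these libraries. Chi-square per gene between replicates was 19.8 to 154, so no library was counted again. In liver the same-numbered null and hHKDC1 OE libraries deviated together (correlations of 0.222, 0.204 and 0.112). They come from mice with different vectors, and no label pairs them. With the replicate number as a block 17 genes and 0 macrophage genes were called in liver. At these depths 0 counts allow up to 3, and genes under 10 counts have a large counting error.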

Additional observations from a re-analysis of the deposited data

How the results depend on the processing

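Of the fold changes of single macrophage genes under all alternatives, 164 of 170 kept their direction in fat, 141 of 141 in liver, 152 of 156 between the null tissues and 180 of 206 in the interaction. In fat, the number of macrophage genes called and of all genes called was 2 and 1301 with DESeq2, 1 and 803 without a filter on low counts, 1 and 876 with the 12 libraries in 1 fit, and 1 and 168 with the replicate block; limma on log2(FPKM + 1) called 1 gene. The fat numbers do not pair the libraries (correlations of 0.03, -0.133 and 0.049), so that block only shares a number. In it Lyz2 had an edgeR adjusted p of 0.0380. Same-numbered null libraries of fat and liver deviated together (0.259, 0.043 and 0.148), as did same-numbered null and hHKDC1 OE libraries of liver. Whether the null libraries of fat and liver share a mouse is not known. In the liver fit with the block 17 genes were called. The block changed no call of a macrophage gene in liver or in the interaction, whereas it called 7 between the null tissues. In liver all genes called were 90 with DESeq2, 2 with library size alone, 327 without a filter (2 macrophage genes called, 5 higher at an unadjusted p under 0.05), and 3 and 5 with limma on log2(FPKM + 1) and log2(FPKM + 0.1), the first with a median over the members of 0.21. Between the null tissues, library size alone called 9 members with a median of 2.23 and 11298 of all 15259 genes, and limma on log2(FPKM + 1) gave a median of 0.74. In the interaction DESeq2 called 493 genes and no filter 479. Members at an unadjusted p under 0.05 were 1 with RLE normalization, 1 with either limma fit, and 0 with at least 10 counts in every library, a filter that removes Itgax and Gpnmb. The cause of these changes was not tested, except that a pseudocount shrinks the values of low genes by construction.

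Leaving out 1 library at a time gave, in fat, 0 to 3 members called, 1 to 6 higher at an unadjusted p under 0.05, a median of 0.55 to 1.03 and 0 to 3251 genes called; the extremes were 2 members at the unadjusted threshold without null replicate 2, 1 without hHKDC1 OE replicate 3, 6 without hHKDC1 OE replicate 1, and 3 called among 3251 genes without hHKDC1 OE replicate 2. In liver these ranges were 0 to 0, 1 to 5, 0.30 to 1.01 and 0 to 146 (146 without hHKDC1 OE replicate 2). Between the null tissues they were 4 to 8, 4 to 8, 1.04 to 1.84 and 8984 to 9671. In the interaction they were 0 to 1, 0 to 2, -0.18 to 0.56 and 0 to 1211. Without fat hHKDC1 OE replicates 1 and 3, chosen after seeing the data, 0 members were higher at an unadjusted p under 0.05. That fit has 1 hHKDC1 OE library, assumed to vary like the null libraries.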
